A study of Mus musculus with 6 samples.

Results

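The Notch pathway was examined in keratinocytes sorted from mouse skin, through the probe sets whose platform gene symbol was Notch1, Notch2, Notch3, Dll1, Jag1, Jag2, Lfng, Numb, Hes1 or Hey1. These 10 genes were chosen by name. Of the 12422 probe sets that were not controls, 13 carried 1 of these symbols and stood for 9 of the 10 genes, among 8251 named genes on the array. No probe set carried the symbol Jag1, and its RNA was not analysed here.

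All cells came from mice with a K15-EGFP transgene, in which the promoter of keratin 15, a keratin of the hair follicle bulge, drives enhanced green fluorescent protein (EGFP). The cells were sorted by flow cytometry into 3 samples of EGFP-high, α6 integrin positive cells and 3 samples of EGFP-negative, α6 integrin positive cells, and each sample was read on 1 Affymetrix array. The labels give neither the age of the mice nor whether replicates are separate animals, and p-values therefore cover the spread among these 6 samples, which may be technical in part. EGFP marks activity of the transgene's promoter, and in sorted populations a smaller share of cells that make an RNA and less RNA per cell cannot be told apart.

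In Notch signalling a ligand on 1 cell, of the Delta-like or Jagged type, binds a Notch receptor on its neighbour. The receptor is then cut by the protease Adam10 and by the γ-secretase complex, and its inner part enters the nucleus, joins the DNA-binding protein Rbpj and switches on genes of the Hes and Hey families. In mouse skin the pathway is known for driving basal keratinocytes into the spinous, keratin 1 and keratin 10 producing, state and for its role in maintaining the hair follicle.

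Values are the deposited intensities, on a linear scale. Differences are EGFP-high minus EGFP-negative on a log2(intensity + 19.3) scale, which understates changes of dim probe sets, and were tested with limma across 7453 probe sets with Benjamini-Hochberg adjustment at a threshold of 0.05. The labels were checked first. Cd34, which marks the surface of bulge cells in mice, averaged 1456 ± 120.2 in EGFP-high cells and 34.9 ± 5.77 in EGFP-negative cells (SD, n = 3 each). Itga6, the gene of the α6 integrin in both gates, was above the controls on all 6 arrays but was lower in EGFP-high cells. It read 485.1, 405.6 and 585.3 in EGFP-high replicates 1, 2 and 3, against 1178, 1050 and 1371 in EGFP-negative replicates 1, 2 and 3, a log2 difference of -1.26 (SE 0.18; limma adjusted p = 0.00449). The groups did not overlap, and the call held in all 14 alternatives tried. The probe set of Krt15, the gene whose promoter drives EGFP, read 1.7 to 7.4 on the EGFP-high arrays and 3.2 to 4.5 on the EGFP-negative arrays, at the level of bacterial control probe sets, and could not serve as a check. That of Krt14, a main basal keratin, was at that level on all 6 arrays too, while 5 of 7 basal keratinocyte markers (Itga6, Itgb4, Itgb1, Trp63 and Col17a1) were above it on every array. The array of EGFP-high replicate 1 lay nearer to the EGFP-negative arrays than its fellows did, at -10.1 on the first principal component, against -29.5 and -24.3 for EGFP-high replicates 2 and 3 and 16.0 to 29.1 for the EGFP-negative arrays.

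Of the 12 Notch pathway probe sets that passed the filter on low values, which stood for all 9 genes, 1 was lower in EGFP-high cells and 0 were higher. The probe set that fell was that of the ligand Dll1, and it was the only 1 of the 12 with an unadjusted p under 0.05. Over all 7453 tested probe sets 5.19% were called, 3.02% higher and 2.17% lower. With the replicate number as a block in the fit, Dll1 was again the 1 member probe set called, where 10.4% of all were. The median log2 difference was -0.28 over the 12, against -0.0017 over all tested probe sets. A lower mean in EGFP-high cells was found for 8 of the 12, or 66.7%, beside 50.2% of all tested probe sets. The groups did not overlap for 3 of the 12, all lower in EGFP-high cells (Dll1, Jag2 and Hes1), a share of 25% beside 22.7% of all tested probe sets. All 12 exceeded the 95th percentile of 15 bacterial control probe sets on every array. That percentile lay between 28.3 and 44.0 on the EGFP-high arrays and between 25.9 and 32.6 on the EGFP-negative arrays.

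**Figure D1:**
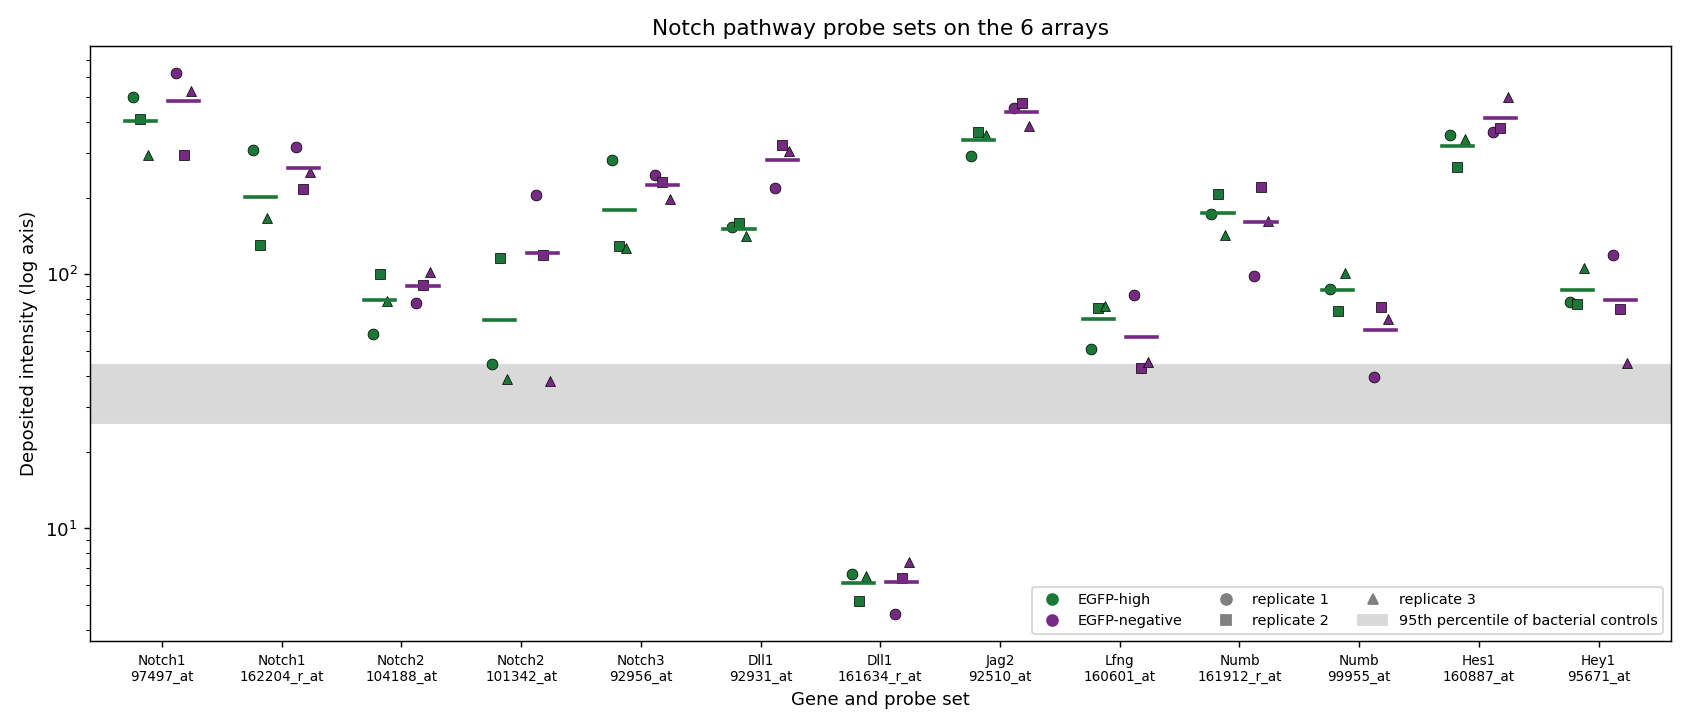
Deposited intensity (log axis) of the 13 Notch pathway probe sets, with 1 point per array, green for EGFP-high and purple for EGFP-negative, and a bar at each group's mean; the grey band spans the 95th percentiles of the bacterial controls on the 6 arrays. The groups of Dll1 probe set 92931_at stand apart, at 142 to 159 in EGFP-high cells and 220 to 323 in EGFP-negative cells, and Dll1 probe set 161634_r_at lies below the band in both.

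Dll1 encodes a transmembrane ligand, Delta-like 1, which activates Notch on adjoining cells. Its probe set 92931_at read 153.9, 158.8 and 141.7 in EGFP-high replicates 1, 2 and 3, against 219.5, 322.9 and 306.6 in EGFP-negative replicates 1, 2 and 3. Every EGFP-high array was below every EGFP-negative array, and the EGFP-high arrays lay closer together. The means were 151 ± 8.81 in EGFP-high cells and 283 ± 55.6 in EGFP-negative cells (SD, n = 3 each), a log2 difference of -0.81 (SE 0.18, 95% interval -1.22 to -0.40; limma adjusted p = 0.0375). The difference was -0.46, -0.94 and -1.02 between the arrays of number 1, 2 and 3, so all 3 pairs went the same way. By an exact permutation test of this probe set alone the two-sided p was 0.1, the smallest that 3 against 3 arrays can give. The other Dll1 probe set, 161634_r_at, read 5.2 to 6.6 in EGFP-high cells and 4.6 to 7.4 in EGFP-negative cells, below the controls' 95th percentile on all arrays, and was not tested. The "_r" in its name marks a set designed under relaxed rules.

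The call of Dll1 was near the threshold, while its direction was the same in all 14 alternatives tried. The adjusted p was 0.0619, 0.101 and 0.148 when EGFP-high replicate 1, 2 or 3 was left out. It was 0.129 and 0.124 when EGFP-negative replicate 2 or 3 was left out, and it stayed under the threshold, at 0.0195, when EGFP-negative replicate 1 was. Over these 6 fits the log2 difference ran between -0.97 and -0.71. With no filter on low values the adjusted p was 0.0618.

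The upstream sequence of Dll1 is shown because Dll1 was the member that changed, in RefSeq's GRCm38.p6 build, as the 250 bases before each of its annotated starts, both on the minus strand, with the motif CACGCG in capitals. CACGCG is a form of the class C site that Hes and Hey repressors bind. It lies 68 bases upstream of the start at the higher coordinate and was not found before the other start. The motif TGGGAA, the core that Rbpj binds, was found before neither start.
Dll1, chr17:15376933-15377182: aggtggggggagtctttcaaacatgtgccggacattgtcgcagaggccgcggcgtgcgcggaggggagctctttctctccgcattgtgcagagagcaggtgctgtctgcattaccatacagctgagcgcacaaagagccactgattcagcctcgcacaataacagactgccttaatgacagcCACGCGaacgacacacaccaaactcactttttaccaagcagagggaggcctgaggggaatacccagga
Dll1, chr17:15375824-15376073: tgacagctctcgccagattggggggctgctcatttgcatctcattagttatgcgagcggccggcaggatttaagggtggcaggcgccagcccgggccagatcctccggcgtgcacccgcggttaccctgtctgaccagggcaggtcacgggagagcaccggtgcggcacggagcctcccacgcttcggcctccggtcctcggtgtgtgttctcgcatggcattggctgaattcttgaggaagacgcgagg

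Promoters matched for 8 of the 10 genes, 11 promoters in all, and both strands of the 250 bases before the start were searched. None matched for Hes1 and Hey1, so the sequences of these targets were not searched. CACGCG was found in 4 of the 11 (of Notch2, Dll1, Jag1 and Lfng) and in 7.62% of the 32851 mouse promoters of the table. TGGGAA was found in 1 of the 11, that of Lfng, and in 21.6% of all. No 2 of the matches overlapped. A match describes the letters in these windows, and the arrays carry no measure of binding.

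Jag2, the other ligand measured, is known from the basal layer. It read 292.5, 364.8 and 353.6 in EGFP-high replicates 1, 2 and 3, against 452.5, 471.0 and 382.7 in EGFP-negative replicates 1, 2 and 3. The groups did not overlap, although the highest EGFP-high array came close to the lowest EGFP-negative one. The log2 difference was -0.35 (SE 0.16, 95% interval -0.72 to 0.02), which did not pass the threshold (limma adjusted p = 0.319). The pairs of number 1, 2 and 3 differed by -0.60, -0.35 and -0.11. Whether Dll1 and Jag2 differed in their response was not tested.

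The receptors did not pass the threshold on any of their 5 probe sets. Notch1, the main receptor of the epidermis, read 500.2, 408.6 and 295.9 on probe set 97497_at in EGFP-high replicates 1, 2 and 3, against 621.0, 295.4 and 529.6 in EGFP-negative replicates 1, 2 and 3. The groups overlapped throughout, and the pair of number 2 went the opposite way to the others. The log2 difference was -0.22 (SE 0.29, 95% interval -0.87 to 0.43; limma adjusted p = 0.765). The second Notch1 probe set, 162204_r_at, read 309.3, 130.5 and 167.5 in EGFP-high replicates 1, 2 and 3, against 317.6, 217.3 and 252.1 in EGFP-negative replicates 1, 2 and 3. It was lower within all 3 pairs, by a log2 difference of -0.04 in number 1 and -0.66 and -0.54 in numbers 2 and 3. Its fitted difference was -0.41 (SE 0.28, 95% interval -1.06 to 0.23; limma adjusted p = 0.539).

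Notch3, a receptor known best from vascular smooth muscle and also made in epidermis, had a similar layout of arrays. It read 283.4, 129.0 and 127.0 in EGFP-high replicates 1, 2 and 3, against 245.6, 230.3 and 197.8 in EGFP-negative replicates 1, 2 and 3. EGFP-high replicate 1 was the highest of the 6 arrays, and the other EGFP-high arrays were below all EGFP-negative arrays. The log2 difference was -0.38 (SE 0.28, 95% interval -1.01 to 0.25; limma adjusted p = 0.573). Without EGFP-high replicate 1 it was -0.72 (adjusted p = 0.0539), and that of Notch1 probe set 162204_r_at was -0.74 (adjusted p = 0.0959), so neither passed the threshold in that fit either. On the same array the spinous keratin Krt10 read 8799, within the EGFP-negative range of 8038 to 9986, against 4399 and 2424 in EGFP-high replicates 2 and 3. The part of such cells in the receptor values was not tested.

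Notch2, a receptor closely related to Notch1, was dim on both of its probe sets. Probe set 104188_at read 58.5, 100.3 and 78.4 in EGFP-high replicates 1, 2 and 3, against 77.1, 90.8 and 102.5 in EGFP-negative replicates 1, 2 and 3. These groups overlapped (log2 difference -0.17, 95% interval -0.66 to 0.32, limma adjusted p = 0.758). Probe set 101342_at read 44.3, 116.2 and 38.9 in EGFP-high replicates 1, 2 and 3, against 206.4, 118.9 and 38.1 in EGFP-negative replicates 1, 2 and 3. Both groups were spread widely there, and the difference of -0.61 had a 95% interval of -1.73 to 0.51 (limma adjusted p = 0.607). The pair of number 1 differed by -1.83, and those of numbers 2 and 3 by -0.03 and 0.02. Dropping that pair, an alternative chosen after the values were seen, gave -0.0042.

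**Figure D2:**
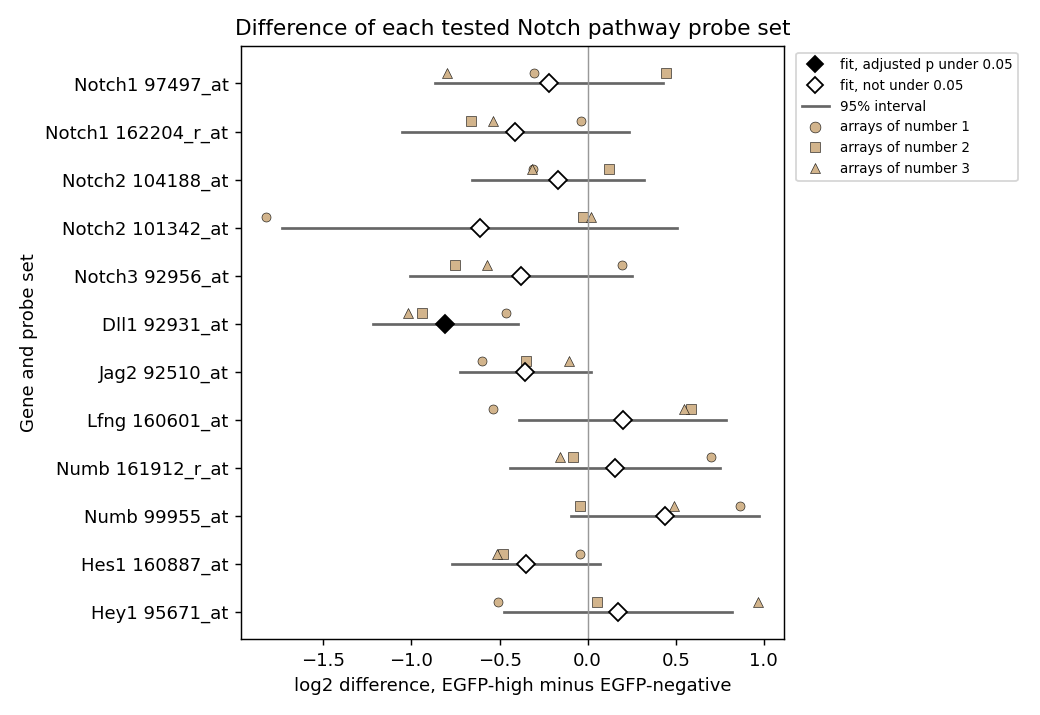
Log2 difference, EGFP-high minus EGFP-negative, of the 12 tested Notch pathway probe sets (diamonds, filled where the adjusted p is under 0.05) with 95% intervals from the limma fit, and the difference within each replicate number (small symbols). The interval of Dll1, -1.22 to -0.40, does not reach 0, while the intervals of the other 11 include 0.

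Lfng encodes lunatic fringe, a glycosyltransferase that modifies Notch receptors and alters which ligands activate them. Lfng read 51.1, 73.7 and 75.1 in EGFP-high replicates 1, 2 and 3, against 82.8, 42.7 and 45.3 in EGFP-negative replicates 1, 2 and 3. The arrays of number 1 lay opposite to those of numbers 2 and 3, with pair differences of -0.54, 0.59 and 0.55. The fitted log2 difference was 0.20 (SE 0.26, 95% interval -0.39 to 0.79; limma adjusted p = 0.765). Its upstream sequence is shown as the only one of the 11 with the Rbpj core. Capitals mark TGGGAA at 135 (as TTCCCA, on the other strand) and at 108 bases before the start, and CACGCG at 55 (as CGCGTG).
Lfng, plus strand, chr5:140607091-140607340: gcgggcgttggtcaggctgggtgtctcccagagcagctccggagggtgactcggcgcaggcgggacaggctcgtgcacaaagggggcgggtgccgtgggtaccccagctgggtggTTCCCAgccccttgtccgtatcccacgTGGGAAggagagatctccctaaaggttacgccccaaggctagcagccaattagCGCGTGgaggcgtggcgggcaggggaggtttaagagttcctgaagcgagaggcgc

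Numb encodes an adaptor that inhibits Notch, and its probe sets gave means that were higher in EGFP-high cells without passing the threshold. Probe set 99955_at read 88.0, 72.1 and 101.5 in EGFP-high replicates 1, 2 and 3, against 39.6, 74.7 and 66.6 in EGFP-negative replicates 1, 2 and 3. Only the EGFP-high array of number 2 fell inside the EGFP-negative range. The log2 difference was 0.44 (SE 0.24, 95% interval -0.10 to 0.98; limma adjusted p = 0.407). Probe set 161912_r_at read 172.5, 207.5 and 143.6 in EGFP-high replicates 1, 2 and 3, against 98.7, 220.9 and 162.3 in EGFP-negative replicates 1, 2 and 3, a difference of 0.15 (limma adjusted p = 0.830). The sign of the second value rested on EGFP-negative replicate 1, without which it was -0.12.

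Neither transcriptional target passed the threshold. Hes1, a repressor and the best known direct target of Notch, read 352.9, 264.8 and 342.4 in EGFP-high replicates 1, 2 and 3, against 364.3, 377.5 and 498.0 in EGFP-negative replicates 1, 2 and 3. The groups did not overlap, although the gap between EGFP-high replicate 1 and EGFP-negative replicate 1 was small. The log2 difference was -0.35 (SE 0.19, 95% interval -0.77 to 0.07), which did not pass the threshold (limma adjusted p = 0.404). Hey1, a repressor of the same family, read 78.2, 76.5 and 106.3 in EGFP-high replicates 1, 2 and 3, against 119.3, 73.0 and 45.0 in EGFP-negative replicates 1, 2 and 3. The EGFP-high arrays all lay within the EGFP-negative range, and the pairs differed by -0.51, 0.05 and 0.97. The fitted difference of 0.17 (95% interval -0.48 to 0.82; limma adjusted p = 0.823) became -0.10 without EGFP-negative replicate 3. Whether Hes1 and Hey1 differed in their response was not tested.

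Other genes of the pathway were read from a list of 73, of which 42 were on the array and 35 passed the filter on low values, each through its brightest probe set. Of the 35, 1 was higher in EGFP-high cells, Ctbp2, and 1 was lower, Wnt4, and 33 did not pass. Over all 5628 genes tested 5.33% were called, 3.06% higher and 2.27% lower. The groups did not overlap for 12 of the 35, a share of 34.3% beside 23.4% of all genes. The median log2 difference of the 35 was -0.04, against -0.0017 over all genes. With the replicate number as a block, 8 of the 35 passed, 2 higher and 6 lower, where 10.6% of all genes did.

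Among nuclear factors and corepressors 1 of 12 tested genes was higher and 0 were lower. Ctbp2, a corepressor that can act in the Rbpj complex, read 163.1, 192.8 and 269.1 in EGFP-high replicates 1, 2 and 3, against 67.6, 100 and 119.0 in EGFP-negative replicates 1, 2 and 3. The groups did not overlap, and the log2 difference was 0.99 (SE 0.24; limma adjusted p = 0.0487). Its other probe set differed by 0.88 (limma adjusted p = 0.0931, or 0.00860 with the block). The call of Ctbp2 was lost without any 1 of 5 arrays: the adjusted p was 0.129 and 0.182 when EGFP-high replicate 2 or 3 was left out, and 0.130, 0.103 and 0.0573 when EGFP-negative replicate 1, 2 or 3 was. It was also above the threshold, at 0.0521 to 0.0964, with the smaller pseudocount, no filter, quantile normalization or no intensity trend. The call held with the block (limma adjusted p = 0.00548), the larger pseudocount (0.0459) and the 60th percentile filter (0.0393). It also held without EGFP-high replicate 1 (0.0352). Ctbp1, its paralog, averaged 646 ± 65.5 in EGFP-high cells and 671 ± 56.3 in EGFP-negative cells (SD, n = 3 each), and Hdac2, a histone deacetylase, 265 ± 21.1 in EGFP-high cells against 341 ± 65.9 in EGFP-negative cells. Neither passed the threshold.

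The following genes were named after their values were seen. Rbpj, the DNA-binding partner of all Notch receptors, read 125.6, 172.7 and 178.9 in EGFP-high replicates 1, 2 and 3, against 107.9, 91.0 and 97.9 in EGFP-negative replicates 1, 2 and 3. Its groups did not overlap, and the log2 difference of 0.58 (SE 0.18) did not pass the threshold (limma adjusted p = 0.127, or 0.0903 with the block). Kat2b, a histone acetyltransferase of the activating complex, averaged 212 ± 33.3 in EGFP-high cells and 113 ± 29.5 in EGFP-negative cells (SD, n = 3 each), a difference of 0.82 that did not pass (limma adjusted p = 0.0569, or 0.0120 with the block). Kat2b also passed with the 60th percentile filter and without EGFP-negative replicate 3. It passed with the mean of a gene's tested probe sets as well. Only this probe set of Kat2b was tested, so nothing was averaged for it there. Its other probe set differed by -0.03, near the controls, and was not tested. Tle3, a corepressor, went the other way, at 207 ± 30.3 in EGFP-high cells and 305 ± 8.91 in EGFP-negative cells, without overlap. Its difference of -0.52 did not pass (limma adjusted p = 0.115, or 0.0644 with the block). Of the 12 genes of this role 3 were higher and 2 lower without overlap, a share of 41.7% beside 23.4% of all genes.

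In receptor cleavage 0 of 5 tested genes passed in limma, 1 of them with an unadjusted p under 0.05, and 1 passed, lower, with the block. Furin, the protease of the first cut, averaged 571 ± 92.5 in EGFP-high cells and 489 ± 55.6 in EGFP-negative cells (SD, n = 3 each), and Psenen, a γ-secretase subunit, 255 ± 73.9 in EGFP-high cells against 221 ± 44.2 in EGFP-negative cells. Adam10, the protease of the ligand-induced cut, read 144.9, 106.3 and 103.3 in EGFP-high replicates 1, 2 and 3, against 197.7, 217.0 and 179.2 in EGFP-negative replicates 1, 2 and 3, and its groups did not overlap. Its log2 difference of -0.67 (SE 0.18) gave an adjusted p of 0.0739 in limma, or 0.0379 with the block, and it passed when EGFP-high replicate 1 was left out. The second Adam10 probe set read 70.7 to 116.8 in EGFP-high cells and 108.6 to 133.5 in EGFP-negative cells, where the groups overlapped, with a difference of -0.36 (limma adjusted p = 0.435, or 0.264 with the block). Adam10 too was named after its values were seen. Among endocytosis and ubiquitin ligase genes 0 of 5 passed in limma, 2 of them with an unadjusted p under 0.05, and those 2, Dtx2 and Fbxw7, passed with the block, both lower. Dtx2, a Deltex ubiquitin ligase, averaged 191 ± 19.1 in EGFP-high cells and 306 ± 66.4 in EGFP-negative cells (SD, n = 3 each; limma adjusted p = 0.113, or 0.0327 with the block). Fbxw7, the subunit of a ubiquitin ligase that binds the inner part of Notch for its breakdown, was named after its values were seen. It read 81.2, 92.4 and 99.5 in EGFP-high replicates 1, 2 and 3, against 133.6, 149.7 and 160.4 in EGFP-negative replicates 1, 2 and 3, without overlap. The log2 difference was -0.60 (SE 0.17; limma adjusted p = 0.0856, or 0.0475 with the block), with -0.61, -0.60 and -0.60 in the pairs of number 1, 2 and 3. Itch, a ligase that acts on Notch, averaged 319 ± 49.7 in EGFP-high cells and 311 ± 40.5 in EGFP-negative cells (SD, n = 3 each).

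The remaining receptor, ligand, fringe and target genes did not pass the threshold, 0 of 6, and 0 of the 6 had an unadjusted p under 0.05. Dlk1, a Delta-like protein without the domain that activates Notch, averaged 357 ± 137 in EGFP-high cells and 264 ± 91.1 in EGFP-negative cells (SD, n = 3 each). Notch4, known from endothelium, was near the controls at 33.7 to 74.7 in EGFP-high cells and 30.3 to 47.7 in EGFP-negative cells, on a probe set whose "_f" marks possible signal from related transcripts. The other Notch4 probe set read 5.7 to 10.5 in EGFP-high cells and 5.1 to 25.5 in EGFP-negative cells. It was at control level on all 6 arrays, differed by -0.30 and was not tested. The fringe enzymes Rfng and Mfng differed by -0.26 and 0.04 on the log2 scale, the second with either sign depending on the scaling. Hes6 and Hes2 differed by 0.28 and -0.04. Hes6 read 79.0 to 102.7 in EGFP-high cells and 64.0 to 74.2 in EGFP-negative cells, without overlap, as was found for 23.4% of all genes. Hes3 and Hes5 were on the array and did not reach the filter.

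Keratinocyte genes known to respond to Notch had a lower mean in EGFP-high cells in 7 of 7 tested, with 1 past the threshold. Of all tested probe sets 50.2% had a lower mean. The median log2 difference of the 7 was -0.96, against -0.0017 over all genes. The list holds genes known to go both ways: in mouse keratinocytes Notch raises Krt1, Krt10 and Cdkn1a, the gene of the cell cycle inhibitor p21, and lowers Wnt4 and Trp63. Wnt4, the one that fell, read 21.8, 139.5 and 76.4 in EGFP-high replicates 1, 2 and 3, against 287.0, 438.2 and 344.0 in EGFP-negative replicates 1, 2 and 3. Its groups stood far apart, with a log2 difference of -2.12 (SE 0.42; limma adjusted p = 0.0215). The size depends on the pseudocount, from -2.39 to -1.53, and EGFP-high replicate 1 lay below the controls' 95th percentile. Its call was lost when EGFP-high replicate 3 was left out (adjusted p = 0.0724), and when EGFP-negative replicate 2 or 3 was (0.0729 and 0.0655).

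Krt1 and Krt10 are the main keratins of spinous cells. Krt1 read 3468, 712 and 570 in EGFP-high replicates 1, 2 and 3, against 5337, 2939 and 1825 in EGFP-negative replicates 1, 2 and 3. Each EGFP-high array was below the EGFP-negative array of its number, and the groups overlapped through EGFP-high replicate 1. The difference of -1.43 (SE 0.63) had an adjusted p of 0.292 in limma, or 0.00708 with the block. That of Krt10 was -0.96 (adjusted p = 0.241, or 0.0538 with the block). Without EGFP-high replicate 1 they were -2.23 and -1.44 (adjusted p = 0.01175 and 0.0133). Cdkn1a, named after its values were seen, read 364.2, 509.0 and 283.7 in EGFP-high replicates 1, 2 and 3, against 1140, 779 and 612 in EGFP-negative replicates 1, 2 and 3, a difference of -1.08 (SE 0.27; limma adjusted p = 0.0548, or 0.00939 with the block). Its other probe set differed by -0.79 (limma adjusted p = 0.0660, or 0.0381 with the block).

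**Figure D3:**
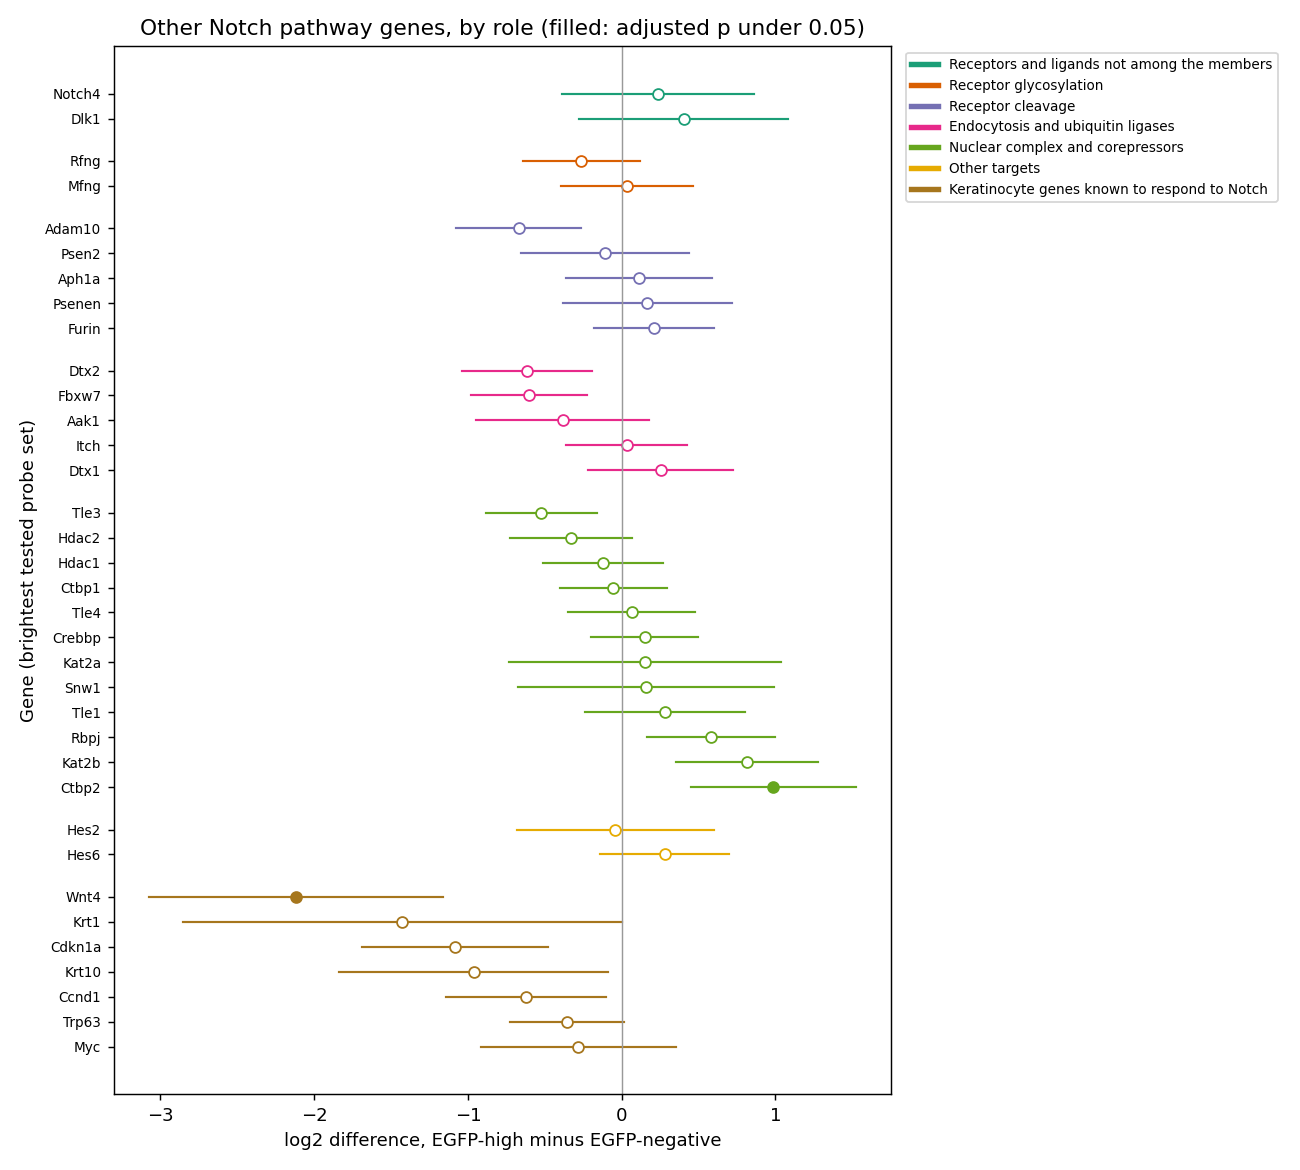
Log2 difference, EGFP-high minus EGFP-negative, of the 35 other Notch pathway genes tested, by role, with 95% intervals from the limma fit; filled points have an adjusted p under 0.05. Ctbp2 lies at 0.99 and Wnt4 at -2.12, and the 7 keratinocyte genes at the bottom all lie below 0.

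Markers of cell types that could carry these RNAs were read as summed intensities over each list. For endothelium, a known site of Dll1, Notch1, Jag2 and Hey1, the 7 markers summed to 359 to 410 in EGFP-high cells and 365 to 468 in EGFP-negative cells, limma called 0 of the 2 tested (0 at an unadjusted p under 0.05), and Cdh5, Tek, Tie1 and Vwf were at control level on all 6 arrays. The 2 tested went opposite ways. Eng read 225.8 to 236.2 in EGFP-high cells and 255.3 to 367.5 in EGFP-negative cells, without overlap. Pecam1 averaged 84.4 ± 12.9 in EGFP-high cells and 76.6 ± 29.1 in EGFP-negative cells. The 6 mural cell markers, a type known for Notch3, summed to 93.9 to 147 in EGFP-high cells and 166 to 204 in EGFP-negative cells. Des, Acta2 and Pdgfrb had lower means in EGFP-high cells, and Myh11, Cnn1 and Rgs5 had higher ones. None of the 6 was above the controls on every array, and Myh11, Cnn1 and Pdgfrb were at control level on all. The 1 mural marker tested, Des, read 27.4 to 39.7 in EGFP-high cells and 55.1 to 82.1 in EGFP-negative cells, without overlap, and had an unadjusted p under 0.05 but was not called (limma log2 difference -0.65, adjusted p = 0.181). The 4 spinous and later markers on the array summed to 3192 to 12618 in EGFP-high cells and 10729 to 15597 in EGFP-negative cells. Of these, Krt1 and Krt10 had lower means in EGFP-high cells. Lor averaged 275 ± 82.0 in EGFP-high cells and 280 ± 113 in EGFP-negative cells, and Ivl was at control level on all 6 arrays. The 2 Schwann cell markers summed to 411 to 436 in EGFP-high cells and 469 to 532 in EGFP-negative cells, with 0 called by limma and 1, Mbp, at an unadjusted p under 0.05. They went opposite ways. Mbp averaged 196 ± 44.6 in EGFP-high cells and 317 ± 56.2 in EGFP-negative cells, and Sox10 averaged 229 ± 42.0 and 180 ± 31.3. Of 5 T cell markers on the array 1 was tested, Thy1, and it was called lower, at 18.4, 59.4 and 85.1 in EGFP-high against 164.1, 207.1 and 154.6 in EGFP-negative cells (limma adjusted p = 0.0382), and the list summed to 126 to 321 in EGFP-high cells and 205 to 247 in EGFP-negative cells. The other 4 T cell markers did not reach the filter and had higher means in EGFP-high cells. Of these, Cd3d read 18.6 to 28.7 in EGFP-high cells and 2.2 to 7.6 in EGFP-negative cells, and Cd3e 27.7 to 135.4 in EGFP-high cells and 19.5 to 21.7 in EGFP-negative cells, both without overlap. Cd3g read 46.7 to 65.3 in EGFP-high cells and 6.1 to 48.4 in EGFP-negative cells, and Cd8a was at control level. Of the tested fibroblast, melanocyte, Langerhans cell and macrophage, and hair matrix markers limma called 0 of 10, and 0 had an unadjusted p under 0.05. The part of these lists in the differences of Dll1 and the receptors was not tested.

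The genes whose log2 values followed Dll1 most closely over the 6 arrays, among 5619 other genes, were H2-Q5, Psme4 and Thbs2, with Pearson correlations of 0.995, 0.988 and 0.984. The points share 2 groups of arrays, so such values arise for many genes that differ between the groups. H2-Q5, a class I histocompatibility gene on a probe set open to related transcripts, averaged 284 ± 16.5 in EGFP-high cells and 608 ± 162 in EGFP-negative cells (SD, n = 3 each). Psme4, a proteasome activator, averaged 132 ± 6.31 in EGFP-high cells and 180 ± 17.3 in EGFP-negative cells, and Thbs2, a matricellular protein, 81.5 ± 20.4 in EGFP-high cells and 267 ± 92.9 in EGFP-negative cells.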

How the data were processed

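RNA of 6 sorted samples was measured on 6 arrays, grouped by their titles. The deposited table holds linear intensities for 12488 rows, with 1 value for each array; from the values, every array had a 2% trimmed mean of 150.1, so the arrays share a scale. The software behind these values is not given in the sources used here, and the number of arrays limits the precision. The 66 control rows were left out. Symbols came from the platform annotation and were looked up by Entrez identifier in RefSeq's GRCm38.p6 table, which matched 10817 of 10833 probe sets with 1 symbol and changed 0.

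Array medians differed by 1.09 times, under the limit of 1.2 for rescaling. Log2(intensity + 19.3) was tested, 19.3 being the 25th percentile of values above 0, on 7453 probe sets with a mean above the 40th percentile (near an intensity of 44.5), with limma 3.58.1 in R 4.3.3 (lmFit, eBayes with intensity trend, two-sided, Benjamini-Hochberg). The procedure was tested on simulated data with independent errors and no effect of the replicate number, so that test does not cover the pairing described below. The replicate number was not a term. Deviations from group means correlated at 0.336, 0.368 and 0.305 between arrays of the same number, all above 0.1, so the numbers in the titles were taken to pair the samples, and values with the number as a block are given where they change a call or count.

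The members, the lists and the tests were chosen with earlier results of these data known. Named are all member probe sets, other pathway genes past the threshold, the brightest pair of genes in each role, and the 3 genes most correlated with the leading member; others are marked as named after their values were seen. Alternatives were the pseudocount (25% and 4 times as large), the filter (none, 60th percentile), quantile normalization, no intensity trend and the block. The others were the mean of a gene's tested probe sets, and each array left out. Leaving out both arrays of number 1 was added after seeing the data.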

Additional observations from a re-analysis of the deposited data

How the results depend on the processing

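Over all probe sets 387 were called, 778 with the replicate block, and 191 to 499 with 1 array left out (191 and 225 when EGFP-high replicate 3 or 2 was dropped, 499 when EGFP-high replicate 1 was). Of the member probe sets 1 was called, Dll1; 0 were called with no filter by limma (2 with an unadjusted p under 0.05), where more probe sets were tested, and 0 to 1 with 1 array left out. With the replicate block the count stayed at 1, Dll1. Its log2 difference ran from -0.98 to -0.64 over 14 alternatives. Member probe sets whose groups do not overlap numbered 3 under every pseudocount, filter and scaling tried. A pseudocount cannot change the order of the arrays, and a filter only sets which probe sets are counted. Only the scaling could have changed which groups overlap. In the main fit the share was 25%, beside 22.7% of all tested probe sets. Of the other pathway genes 2 were called. The count was 1 with the smaller pseudocount, with no filter, with quantile normalization and without the trend (Wnt4 in each). It was 4 with the 60th percentile filter (Cdkn1a, Ctbp2, Kat2b and Wnt4) and 8 with the replicate block. With the mean of a gene's tested probe sets it was 3 (Wnt4, Kat2b and Cdkn1a, without Ctbp2), and 0 to 5 with 1 array left out. The count was 0 when EGFP-high replicate 3 was dropped and also when EGFP-negative replicate 2 was (limma; 9 with an unadjusted p under 0.05 in each), 1 on dropping EGFP-negative replicate 1, and 5 on dropping EGFP-high replicate 1. Sizes of members that did not pass moved too, from -1.15 to -0.0042 for Notch2 101342_at, -0.52 to -0.012 for Notch1 97497_at and 0.069 to 0.57 for Lfng. Signs turned for differences that did not pass the threshold: with both arrays of number 1 left out for Numb 161912_r_at (-0.12), Dlk1 (-0.14), Psenen (-0.13) and Mfng (-0.054), and with quantile normalization for Mfng (-0.0023). With 1 array left out Numb 161912_r_at ran from -0.12 to 0.39, Hey1 from -0.10 to 0.45, Mfng from -0.064 to 0.19, Itch from -0.085 to 0.13 and Hes2 from -0.21 to 0.22. The cause of these changes was not tested, and members at the level of the controls, as Dll1 161634_r_at, cannot show a difference.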
